A study of Rattus norvegicus with 36 samples.

Results

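Drd1, Drd2 and Adora2a encode the dopamine D1 receptor, the dopamine D2 receptor and the type 2A adenosine receptor, the receptors by which the spiny projection neurons of the striatum read dopamine and adenosine. They were chosen by name and identifier, as ENSRNOG00000023688 (Drd1), ENSRNOG00000008428 (Drd2) and ENSRNOG00000001302 (Adora2a), and are 3 of the 32402 genes listed in the count tables. All 3 of the 3 passed the filter on low counts, which kept 15555 genes.

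Messenger RNA was sequenced from the nucleus accumbens, the ventral part of the striatum, of 9 Sprague-Dawley rats aged 8 weeks, in 3 groups of 3. All animals went through conditioned place preference, in which a compartment is paired with a drug. CPPE rats expressed the preference for cocaine and are called dependent in the labels. The nCPPE rats had the same cocaine treatment without expressing the preference and are called non dependent. Both cocaine groups received 4 cocaine injections, 15 days of withdrawal and 1 final cocaine injection of 5 mg/kg, followed by an 18 min preference test. Saline rats received physiological serum at every injection. The series text also names an extinction phase of 12 days. The labels used here do not state the conditioning dose, the animals' sex or the score by which a rat was put in CPPE or nCPPE. CPPE against nCPPE addresses the expression of the preference at equal treatment, and Saline is the control of both.

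The deposited values were raw read counts per gene, with totals of 6771828 to 9961469 in the single technical replicates, 4 of each rat, and of 27724289 to 39067715 once these were summed by rat. One library stood apart from the rest. In the second Saline rat, Saline 2, 28.1% of the genes tested lay more than 1 log2 unit from the mean of the other 8 rats, against 0.990% to 2.48% in each other rat. The group comparisons are therefore given with and without Saline 2. The labels name the nucleus accumbens for every library, while their extraction protocol also names the caudate putamen, the dorsal striatum. The part of either region in a library was not tested. Markers of other cell types and the other genes of dopamine and adenosine signalling are not analysed here, because 0 genes of the reference table carried an Ensembl identifier by which they could be named.

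In the striatum the spiny neurons form a pair of intermingled classes. Neurons of the direct pathway carry the D1 receptor, which couples to stimulatory G proteins and raises cyclic AMP when dopamine binds. Neurons of the indirect pathway carry the D2 receptor, which couples to inhibitory G proteins and lowers cyclic AMP, together with the type 2A adenosine receptor, which raises it and so acts against the D2 receptor in the same cell. Drd1 mRNA thus marks the direct class, and Drd2 and Adora2a mRNA mark the indirect class, although D2 receptors are also made by cholinergic interneurons.

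The start of Drd2 is shown because the direction of this gene against Saline turned on 1 rat. Of the 3 receptors, it was also the only receptor called in any of the fits described below. The RefSeq window holds the 250 bases before the annotated start of Drd2, at chr8:58605153-58605402 on the plus strand of rat build GRCr8, and the capitals mark matches to the GC box GGGCGG or its reverse complement CCGCCC. The sequence runs 5′ to 3′.
Drd2: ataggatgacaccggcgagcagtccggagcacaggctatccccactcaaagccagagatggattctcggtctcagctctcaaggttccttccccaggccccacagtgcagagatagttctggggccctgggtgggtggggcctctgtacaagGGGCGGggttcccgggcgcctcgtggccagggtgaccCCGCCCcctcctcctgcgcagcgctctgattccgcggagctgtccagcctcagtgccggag
The window was 66% G and C, against a median of 51.2% over 33469 windows of the same length. It held 2 GC boxes on either strand, and 30.5% of all windows held at least 1. It held no TATAAA and no TGACG on either strand, letters that 12.9% and 18.2% of all windows held. These matches describe the letters of the window and were not tied to the RNA values. A window was listed for Drd1 as well, but it lay inside the gene's own span in that build and is not printed. No sequence is printed for Adora2a.

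Levels are given as CPM, counts scaled to a common library total, with library sizes adjusted by TMM (trimmed mean of M values). CPM is not scaled by gene length, so levels are compared between rats for 1 gene and not between genes. In tissue RNA, fewer cells of a class and less RNA per cell cannot be told apart.

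Drd1, the D1 receptor, stood at 170.5 CPM in Saline 1, 98.1 in Saline 2 and 161 in Saline 3. The CPPE rats had 167, 218 and 170.2 CPM, and the nCPPE rats had 197, 170.6 and 182 CPM. Saline 2 was the lowest of the 9 rats and CPPE 2 the highest, while the other 7 lay between 161 and 197 CPM. The group means were 143 ± 39.4 CPM in Saline, 185 ± 28.3 in CPPE and 183 ± 13.0 in nCPPE rats (SD, n = 3). Without Saline 2 the Saline mean was 166 ± 6.74 CPM (SD, n = 2), and its 2 rats overlapped with the CPPE rats. All 3 nCPPE rats lay above all Saline rats, but nCPPE 2 (170.57 CPM) and Saline 1 (170.54 CPM) were all but equal.

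Drd2, the D2 receptor, stood at 145 CPM in Saline 1, 309 in Saline 2 and 149.5 in Saline 3. The CPPE rats had 188, 186 and 177 CPM, and the nCPPE rats had 182, 172 and 189 CPM. The 6 cocaine rats thus lay close together, Saline 1 and Saline 3 lay below all of them, and Saline 2 lay above all of them. The Saline mean of 201 ± 93.7 CPM (SD, n = 3) lay in the gap between its own rats. Without Saline 2 it was 147 ± 3.46 CPM (SD, n = 2), against 183 ± 6.06 in CPPE and 181 ± 8.42 in nCPPE rats (SD, n = 3). Scaled to raw library totals in place of TMM, Saline 1 and Saline 3 had 144 and 149.8 CPM and the cocaine rats 176 to 190.5 CPM, which kept the same order.

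Adora2a, the adenosine receptor, followed the same order less sharply. It stood at 229.6 CPM in Saline 1, 429 in Saline 2 and 250.1 in Saline 3. The CPPE rats had 313, 281 and 251 CPM, and the nCPPE rats had 304, 295 and 265 CPM. Saline 2 was again the highest and Saline 1 and Saline 3 the lowest, but CPPE 3 lay only just above Saline 3. The Saline mean was 303 ± 109 CPM with Saline 2 (SD, n = 3) and 239.8 ± 14.5 without it (SD, n = 2), against 282 ± 31.1 in CPPE and 288 ± 20.7 in nCPPE rats (SD, n = 3).

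**Figure D1:**
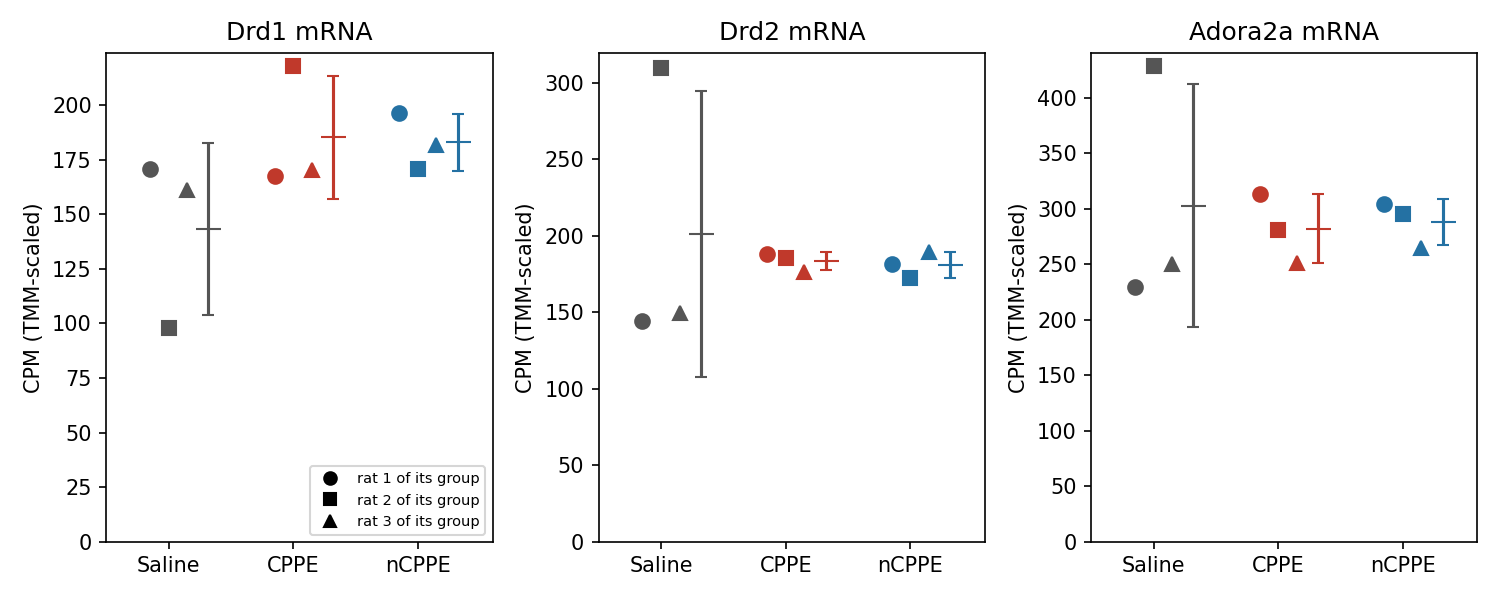
TMM-scaled CPM (y axis, starting at 0) of Drd1, Drd2 and Adora2a in each rat by group (x axis), with each group's mean and SD (bar, n = 3). Saline 2 has the lowest Drd1 (98.1 CPM) and the highest Drd2 (309 CPM) and Adora2a (429 CPM), and the other Saline rats have the lowest Drd2.

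All 4 technical replicates of Saline 2 placed it apart from the other rats in the 3 genes. In CPM of raw totals, Drd1 ranged from 88.1 to 97.5, Drd2 from 283 to 311 and Adora2a from 403 to 418 over these replicates. The 3 genes were tested in the 9 rats for differences between technical replicates with 27 chi-square tests, of which 3 gave p below 0.05. The smallest, 0.00818, was that of Drd2 in Saline 2, where the technical replicates differed by up to 9.90%. The largest range between technical replicates of a rat, 10.7%, was that of Drd1 in Saline 2, far less than the distance of Saline 2 from the other rats in each of the 3 genes.

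Measured against the mean of the other 8 rats, Saline 2 was 0.86 log2 units lower in Drd1 (0.549 times), 0.84 higher in Drd2 (1.79 times) and 0.65 higher in Adora2a (1.57 times). These shifts were not rare in that library. Among the genes tested, 22.4% deviated as low as Drd1 or lower, 14.1% as high as Drd2 or higher and 21.6% as high as Adora2a or higher.

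**Figure D2:**
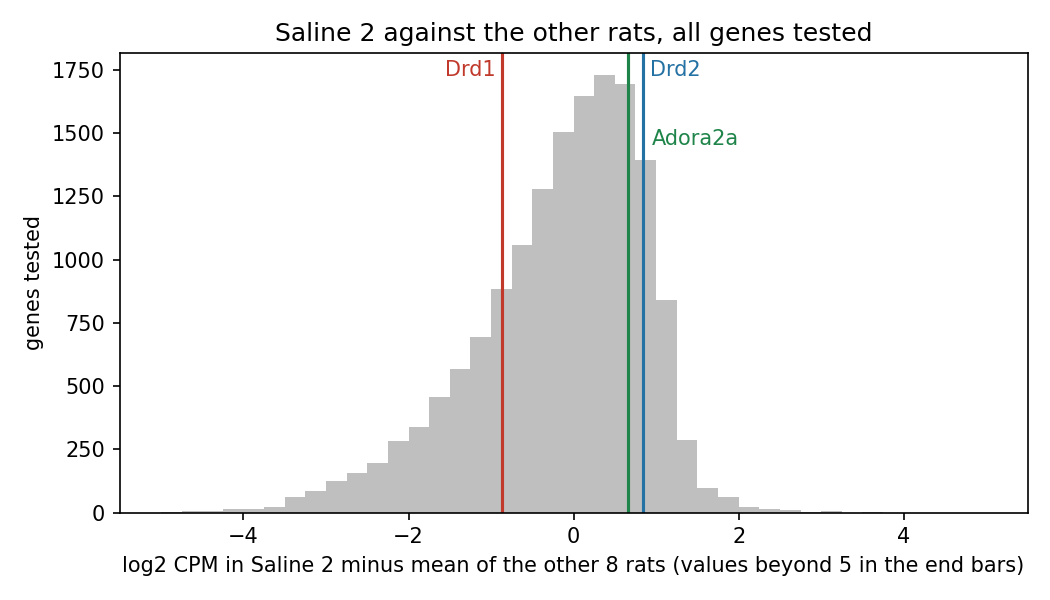
Deviation of Saline 2 from the mean of the other 8 rats in log2 CPM (x axis) for all genes tested (y axis, number of genes per bar), with lines at Drd1, Drd2 and Adora2a. Drd1 lies on the long low side and Drd2 and Adora2a on the high side, within the bulk of the genes of this library.

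CPPE and nCPPE rats, which had the same cocaine treatment and differed in the preference they expressed, were not told apart by any of the 3 receptor mRNAs. In edgeR's quasi-likelihood test over all 9 rats, Drd1 was 1.01 times as high in CPPE as in nCPPE rats (95% interval 0.726 to 1.41). Drd2 was 1.01 times as high (0.664 to 1.54) and Adora2a 0.978 times as high (0.682 to 1.40). The Benjamini-Hochberg adjusted p was 1.00 for each. Without Saline 2 the spread shared by the groups was smaller, and the intervals narrowed to 0.860 to 1.19 for Drd1, 0.923 to 1.11 for Drd2 and 0.846 to 1.13 for Adora2a, again with no call. Differences inside these intervals were not excluded with 3 rats a group. No gene at all passed an adjusted p of 0.05 in this edgeR comparison, with or without Saline 2 (0% of the genes tested in both). At an unadjusted p below 0.05 there were 84 genes with Saline 2 (0.540%) and 556 without it (3.53%), with none of the 3 receptors among them. DESeq2 without Saline 2 called 1 gene (0.00449%), which was none of the 3.

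CPPE rats against Saline rats gave a log2 difference of 0.37 ± 0.21 (SE) for Drd1, -0.13 ± 0.27 for Drd2 and -0.10 ± 0.23 for Adora2a in edgeR with all 9 rats. The adjusted p was 0.882, 0.904 and 0.912. None of the 3 was among the 139 genes (0.894%) at an unadjusted p below 0.05, and 0% of genes were called. Without Saline 2, Drd1 differed by 0.16 ± 0.12, Drd2 by 0.32 ± 0.07 and Adora2a by 0.23 ± 0.10. The Drd2 difference corresponds to 1.25 times the Saline level (95% interval 1.12 to 1.39). The direction of Drd2 and Adora2a therefore turned on 1 rat, and that of Drd1 did not. Without Saline 2, Drd2 was among the 929 genes (5.90%) at an unadjusted p below 0.05 (p = 0.000942 in edgeR), but its adjusted p was 0.825 and again 0% of genes were called. In this comparison all CPPE rats lay above both Saline rats in Drd2 and Adora2a, as they did in 11.8% of all genes tested.

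The nCPPE rats stood in much the same relation to Saline, with the same Saline rats as reference. With all 9 rats the edgeR log2 difference was 0.35 ± 0.21 (SE) for Drd1, -0.15 ± 0.27 for Drd2 and -0.07 ± 0.23 for Adora2a, with adjusted p from 0.937 to 0.948. The genes at an unadjusted p below 0.05 numbered 179 (1.15%), with none of the 3 receptors among them, and 0% were called. Drd1 was higher in every nCPPE rat than in every Saline rat, which 2.12% of genes were. It was a near tie, however, with 170.57 CPM in nCPPE 2 and 170.54 CPM in Saline 1. Without Saline 2, Drd1 differed by 0.14 ± 0.12, Drd2 by 0.30 ± 0.07 (1.23 times) and Adora2a by 0.27 ± 0.10. Drd2 and Adora2a were then among the 964 genes (6.12%) at an unadjusted edgeR p below 0.05 (p = 0.00139 and 0.0309), with an adjusted p of 0.787 for both and 0% of genes called. All 3 receptors were then higher in every nCPPE rat than in both Saline rats, as 12.5% of genes were. For Drd1 this rested on the same near tie of nCPPE 2 and Saline 1.

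Set together, the 6 cocaine rats had mean levels of 184 ± 19.7 CPM for Drd1, 182 ± 6.68 for Drd2 and 285 ± 23.9 for Adora2a (SD, n = 6). Against all 3 Saline rats, Drd1 was 1.28 times as high (log2 difference 0.36, 95% interval -0.06 to 0.78; edgeR adjusted p = 0.825). Drd2 differed by -0.14 (-0.67 to 0.38; edgeR adjusted p = 0.852) and Adora2a by -0.09 (-0.54 to 0.36; edgeR adjusted p = 0.881). The 193 genes (1.24%) at an unadjusted p below 0.05 held none of the 3, and 0% were called. Ranked by the size of the log2 difference, Drd1 exceeded 83.0% of the genes tested, Drd2 40.0% and Adora2a 24.7%.

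Without Saline 2 that order was turned around, and Drd2 and Adora2a showed the larger differences. Drd2 was 1.24 times as high in cocaine rats as in Saline 1 and Saline 3 (95% interval 1.13 to 1.36; log2 difference 0.31 ± 0.06 SE). Adora2a was 1.19 times as high (log2 difference 0.25 ± 0.09) and Drd1 differed by 0.15 ± 0.11. By size, Drd2 now exceeded 87.0% of the genes, Adora2a 82.4% and Drd1 66.5%. Drd2 (edgeR p = 0.00057) and Adora2a (p = 0.0258) were among the 1055 genes (6.70%) at an unadjusted p below 0.05, but the adjusted p was 0.699 for Drd2 and 0.711 for Adora2a, with 0% of genes called. Both were higher in all 6 cocaine rats than in both Saline rats, as 5.16% of genes were. The comparison then rests on 2 Saline rats.

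The call for Drd2 depended on the tool and on leaving out Saline 2. DESeq2 without Saline 2 was a fit added after seeing the data. It called Drd2 in each of the 3 comparisons with Saline, which share their Saline rats. Its independent filtering gave an adjusted p to some of the 22270 genes only, and the shares called are of those genes. For CPPE the adjusted p of Drd2 was 0.0231, with 12 of 18384 genes called (0.0653%). For nCPPE it was 0.0497, with 15 of 7590 genes called (0.198%). For all cocaine rats it was 0.00805, with 19 of 12340 genes called (0.154%) and a log2 difference of 0.31 as in edgeR. With no independent filtering the DESeq2 adjusted p of Drd2 was 0.0280 for CPPE, 0.122 for nCPPE and 0.0145 for all cocaine rats, so the call for nCPPE against Saline was lost. With independent filtering, the DESeq2 adjusted p of Adora2a was 0.999742, 0.535 and 0.480 in the same order. Neither Adora2a nor Drd1 was called with or without that filtering. With all 9 rats DESeq2 called none of the 3. The limma-voom fit with quality weights, which keeps all 9 rats and gives a deviating library less weight, put Drd2 at 0.31, 0.29 and 0.30 against Saline and Adora2a at 0.22, 0.30 and 0.26, in the order CPPE, nCPPE and all cocaine rats. In the same fit Drd1 stood at 0.09, 0.18 and 0.13, well below its edgeR values with all rats. None of these limma values was called, with adjusted p of at least 0.515.

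**Figure D3:**
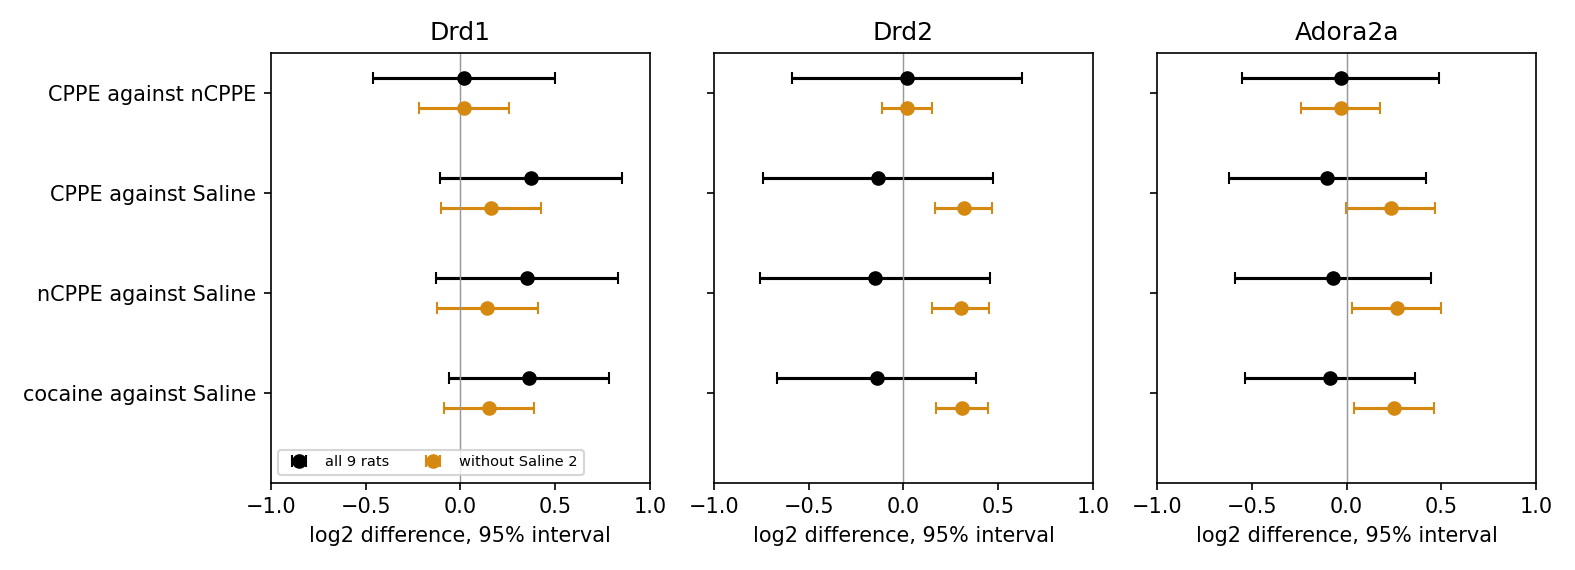
Log2 difference (x axis) with its 95% interval from edgeR for Drd1, Drd2 and Adora2a in 4 comparisons (y axis), with all 9 rats and without Saline 2. CPPE and nCPPE rats lie near 0 in all 3 genes, and the Drd2 difference of all cocaine rats from Saline moves from -0.14 to 0.31 when Saline 2 is left out.

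The balance of the D1 and D2 receptor mRNAs was read from the ratio of Drd1 to Drd2 counts within each rat. This ratio needs no scaling of libraries, and it does not measure the share of either class of neuron in the tissue. Its absolute size depends on transcript length, so it is compared between rats only. The ratio was 1.18 in Saline 1, 0.317 in Saline 2 and 1.08 in Saline 3. It was 0.891, 1.17 and 0.964 in the CPPE rats and 1.08, 0.989 and 0.959 in the nCPPE rats. Saline 2 lay far below the other 8 rats, which spanned 0.891 to 1.18. The exact 95% Clopper-Pearson interval of Saline 2 was 0.304 to 0.331, which covers counting error only, and its 4 technical replicates gave 0.305 to 0.334.

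The mean Drd1 to Drd2 ratio was 1.01 ± 0.146 in CPPE and 1.01 ± 0.0634 in nCPPE rats (SD, n = 3). It was 0.858 ± 0.471 in Saline with Saline 2 (SD, n = 3) and 1.13 ± 0.0724 without it (SD, n = 2). The log2 ratio differed by -0.01 between CPPE and nCPPE rats (exact two-sided permutation p = 1). Cocaine and Saline rats differed by 0.45 (exact permutation p = 0.619), and without Saline 2 by -0.16 (exact permutation p = 0.214). The group ranges overlapped in each case: CPPE 2 and nCPPE 1 lay at or above Saline 3. Over 12 comparisons of 3 ratios the Benjamini-Hochberg adjusted p was at least 0.982. Such tests of 3 against 3 rats cannot go below 0.1, nor those of 6 against 3 below 0.0238, nor those of 6 against 2 below 0.0714.

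The ratio of Drd1 to Adora2a set the same rats apart. It was 0.743, 0.229 and 0.644 in the Saline rats, 0.535, 0.774 and 0.678 in the CPPE rats and 0.646, 0.578 and 0.685 in the nCPPE rats. Saline 2 was again the single low value. The cocaine rats differed from Saline by 0.43 log2 units (exact permutation p = 0.476), and by -0.10 without Saline 2.

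The ratio of Adora2a to Drd2, a pair of genes made by the same class of neuron, was the steadiest of the 3 over all rats, but not in each group. Over the 8 rats other than Saline 2 its log2 SD was 0.113, against 0.146 for Drd1 to Drd2 and 0.176 for Drd1 to Adora2a. Among the nCPPE rats it was the least steady, at 0.159 against 0.0895 and 0.125 in the same order. It was 1.59, 1.39 and 1.67 in the Saline rats, 1.67, 1.52 and 1.42 in the CPPE rats and 1.67, 1.71 and 1.40 in the nCPPE rats. Saline 2 was the lowest here too, but nCPPE 3 lay next to it, so that in this ratio Saline 2 did not stand apart. Cocaine rats differed from Saline by 0.02 log2 units (exact permutation p = 0.833) and by -0.06 without Saline 2.

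**Figure D4:**
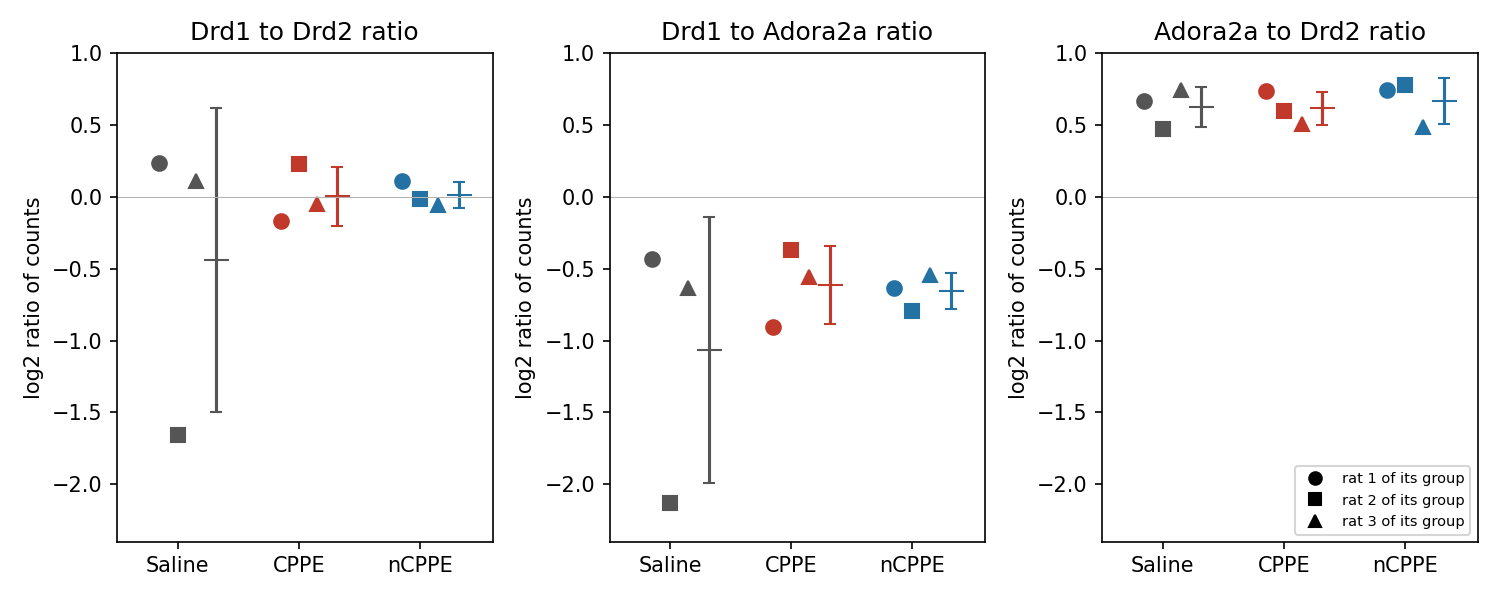
Log2 ratio of counts per rat (y axis) for Drd1 to Drd2, Drd1 to Adora2a and Adora2a to Drd2, by group (x axis), with each group's mean and SD (bar, n = 3). Saline 2 lies far below the other 8 rats in both ratios with Drd1, whose Drd1 to Drd2 ratio spans 0.891 to 1.18, and next to nCPPE 3 in the ratio of Adora2a to Drd2.

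Across the 9 rats, Adora2a and Drd2 varied together. Pearson's r of log2 CPM was 0.924 (exact permutation p = 0.00533, adjusted over 3 pairs 0.0160) and Spearman's rho 0.733 (exact permutation p = 0.0311, adjusted 0.0934). Leaving out the 2 rats farthest from the median of Adora2a, Saline 2 and Saline 1, gave r = 0.524 (exact permutation p = 0.242), so the relation rested on those rats. Without Saline 2 alone r was 0.729 (exact permutation p = 0.0480, adjusted 0.144). As deviations from the group means, r was 0.927 with all 9 rats (permutation p = 0.00288, adjusted 0.00865). It was 0.226 without Saline 2 (permutation p = 0.580). The deviations of each group sum to 0 and were shuffled across groups, so these p-values are approximate.

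The relation of Drd1 to the other receptors also depended on Saline 2. Its r with Drd2 was -0.712 over 9 rats (exact permutation p = 0.209, rho -0.0333) and 0.513 without Saline 2 (exact permutation p = 0.119). With Adora2a it was -0.674 (exact permutation p = 0.173, rho -0.1) and 0.321 (exact permutation p = 0.446). None of these 4 values passed the adjusted threshold, and the sign of r changed with 1 rat for both pairs. As deviations from the group means with all 9 rats, Drd1 was negatively related to Drd2 (r = -0.851, permutation p = 0.0167). The same held for Adora2a (r = -0.813, permutation p = 0.0197), with an adjusted p of 0.0197 for both. Without Saline 2 these r values became 0.260 (permutation p = 0.550) and -0.0178 (permutation p = 0.957). As above, the p-values of deviations are approximate.

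**Figure D5:**
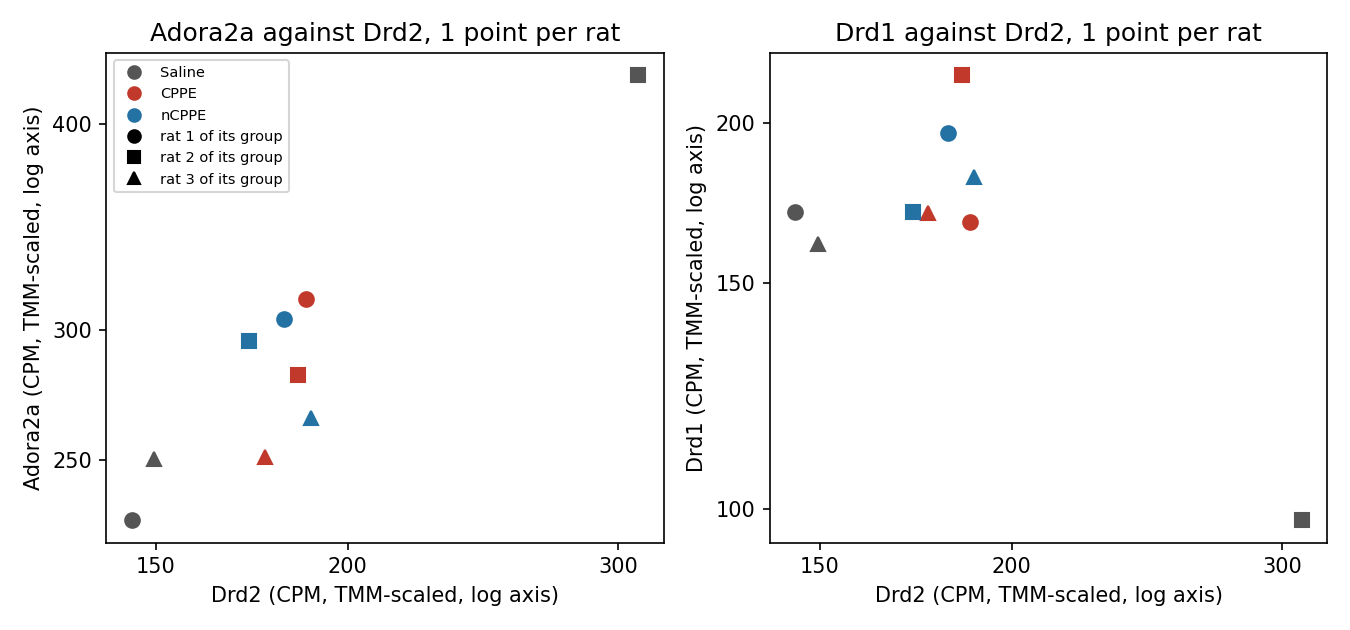
Adora2a against Drd2 and Drd1 against Drd2 in TMM-scaled CPM (both axes log-scaled), with 1 point per rat, colours for groups and shapes for rats 1 to 3 of a group. Saline 2 lies alone at high Drd2 (309 CPM) and Adora2a (429 CPM) with low Drd1 (98.1 CPM). Among the other 8 rats, Saline 1 and Saline 3 lie below all cocaine rats in Drd2.

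The receptors were neither unusually steady nor unusually variable. Over the 8 rats other than Saline 2, the SD of log2 CPM was 0.14 for Drd1, 0.15 for Drd2 and 0.16 for Adora2a, and 56.9%, 59.5% and 62.2% of the 13767 genes averaging 1 CPM or more had a smaller one. The highest of these 8 rats exceeded the lowest 1.35 times in Drd1, 1.31 times in Drd2 and 1.36 times in Adora2a. With Saline 2 these became 2.22, 2.14 and 1.87 times. The biological coefficient of variation that edgeR fitted to Drd2 was 24.5% with Saline 2 and 6.08% without it, and it was 20.2% and 9.57% for Drd1 and 21.4% and 8.60% for Adora2a.

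Genes with the most similar pattern were taken by Pearson's r of log2 CPM with each receptor among 13764 genes, as a description. For Drd1 these were ENSRNOG00000001773 (r = 0.990) and ENSRNOG00000009029 (r = 0.986) over 9 rats. Over the 8 rats without Saline 2, ENSRNOG00000006604 (r = 0.970) came first for Drd1, although its r over 9 rats was -0.752. For Drd2 they were ENSRNOG00000009719 (r = 0.987) and ENSRNOG00000001736 (r = 0.986) over 9 rats and ENSRNOG00000002331 (r = 0.978) and ENSRNOG00000001415 (r = 0.977) over 8. ENSRNOG00000001415 followed Drd2 with and without Saline 2, at r = 0.975 over 9 rats. For Adora2a they were ENSRNOG00000051615 (r = 0.976) and ENSRNOG00000000231 (r = 0.973) over 9 rats and ENSRNOG00000001057 (r = 0.962) over 8. The last also followed Adora2a over 9 rats, at r = 0.933. Among 13766 genes, Adora2a ranked 769 by r with Drd2 over 9 rats (5.58% of genes were higher) and 454 over 8 (3.29%). In turn, Drd2 ranked 111 by r with Adora2a over 9 rats (0.799%) and 300 over 8 (2.17%). Each thus stood high in the other's ranking, with many genes still above it.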

How the data were processed

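Per the labels' protocols, polyadenylated RNA was purified from 300 ng of total RNA and made into strand-specific libraries (TruSeq Stranded mRNA). The submitters' processing notes name bcl2fastq 2.18.0.12, STAR and HTSeq 0.5.3. For the STAR version, build, annotation and strand setting no source used here gives a value, so how reads of overlapping genes were counted is not known. The deposited values are raw counts per Ensembl gene, in 36 files (4 technical replicates of 9 rats). Technical replicates were summed per rat.

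Counts were filtered with filterByExpr, scaled with TMM and fitted by edgeR 4.0.16 (glmQLFit, glmQLFTest; R 4.3.3) in a model of group alone on the 9 rats. A gene was called at a Benjamini-Hochberg adjusted p below 0.05, with the adjustment made across every tested gene. All groups shared 1 estimate of the spread. Alternatives were DESeq2 1.42.0 on all genes with a count, limma 3.58.1 (voom with quality weights), other scalings and filters, only the rats compared, a replicate block and each rat left out. Ratios and correlations were tested with exact permutations (Python 3.11.15, scipy 1.17.1), and log2 CPM used a prior count of 2. For deviations from group means the permutation p is approximate, because the deviations were shuffled across groups. The edgeR step was tested on simulated data with changes set in CPPE alone and no divergent library. That test cannot show how the fit handles a library such as Saline 2. Fits of DESeq2 (with and without its independent filtering), limma and the replicate block without Saline 2, and the correlations without the 2 farthest rats or as deviations without Saline 2, were added after seeing the data. Genes of similar pattern were the 2 with the highest r per receptor over 9 and over 8 rats, among genes averaging 1 CPM or more. The members and lists were chosen with earlier results of these data known. Promoter windows are from RefSeq (GRCr8), where 3 of 3 members were listed by symbol and 2 had a window.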

Additional observations from a re-analysis of the deposited data

How the results depend on the processing

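Each rat had at least 27724289 counts and each receptor at least 2737 counts in every rat, while each group held 3 rats. Leaving out Saline 2 turned the direction of Drd2, Adora2a and both ratios with Drd1 against Saline, and the cause was not tested. The log2 ratio of Adora2a to Drd2 turned as well for nCPPE rats (0.0418 to -0.0363) and all cocaine rats (0.0151 to -0.0629). It did not turn for CPPE rats (-0.0115 to -0.0896). Of 252 repeated log2 differences of the receptors 208 kept their direction with no call, and 44 reversed. The 44 include the Drd2 differences from Saline that DESeq2 without Saline 2 called. Of 156 ratio differences 131 kept their direction and 25 reversed. Of 84 counts of called genes 74 stayed the same. Of 42 correlations 31 did, 5 reversed, 2 gained a call and 4 lost it.

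DESeq2 with all rats called 1 gene in CPPE against nCPPE and 1 in nCPPE against Saline, where edgeR called 0. Without Saline 2 it called 1, 12, 15 and 19 genes (CPPE against nCPPE, CPPE, nCPPE and all cocaine rats against Saline), and 1, 10, 2 and 5 with no independent filtering, which ended the call of Drd2 in nCPPE rats (adjusted p = 0.122). Leaving out any single rat left edgeR at 0 calls in all 4 comparisons.

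Drd2 against Saline reversed to 0.31 (CPPE), 0.29 (nCPPE) and 0.30 (all cocaine rats) in limma-voom with all rats. Without Saline 2 it was 0.32, 0.30 and 0.31 in DESeq2, 0.31, 0.30 and 0.31 in limma-voom, and 0.33, 0.31 and 0.32 with the replicate block. Adora2a reversed to 0.22, 0.30 and 0.26 in limma-voom with all rats, and without Saline 2 to 0.24, 0.26 and 0.25 in DESeq2, 0.22, 0.30 and 0.26 in limma-voom, and 0.21, 0.25 and 0.23 with the block. Drd1 in CPPE against nCPPE turned to -0.0945 in limma-voom and to -0.0977 there without Saline 2.

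Leaving out 1 rat at a time moved Drd2 from -0.31 to 0.32 (CPPE), -0.33 to 0.30 (nCPPE) and -0.32 to 0.31 (all cocaine rats) against Saline, and Adora2a from -0.26 to 0.23, -0.23 to 0.27 and -0.24 to 0.25. The low ends came without Saline 1 and the high ends without Saline 2. Drd1 ranged from 0.16 to 0.52, 0.14 to 0.50 and 0.15 to 0.51, lowest without Saline 2 and highest without Saline 1, and was 0.09, 0.18 and 0.13 in limma-voom with all rats. Between CPPE and nCPPE rats, Drd1 ranged from -0.115 to 0.0853, Drd2 from -0.0164 to 0.0503 and Adora2a from -0.114 to 0.0453.

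With group medians, the Drd1 to Drd2 log2 ratio differed from Saline by -0.16 (CPPE), -0.12 (nCPPE) and -0.14 (all cocaine rats). Leaving out 1 rat at a time, it ranged from -0.17 to 0.78, -0.16 to 0.79 and -0.16 to 0.78, and from -0.122 to 0.0764 between CPPE and nCPPE rats. Drd1 to Adora2a ranged from -0.0790 to 0.770, -0.124 to 0.726 and -0.101 to 0.748 against Saline and from -0.0763 to 0.191 between CPPE and nCPPE rats. Adora2a to Drd2 ranged from -0.0896 to 0.0463, -0.0363 to 0.133 and -0.0629 to 0.0729 against Saline and from -0.145 to 0.000427 between CPPE and nCPPE rats.

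For Drd1 and Drd2, r was -0.851 as deviations from group means, 0.260 with Saline 2 also left out and 0.499 without the 2 farthest rats, and ranged from -0.804 to 0.513 with 1 rat left out. For Drd1 and Adora2a, r was -0.813 as deviations from group means, -0.0178 with Saline 2 also left out, 0.377 without the 2 farthest rats, and from -0.743 to 0.321 with 1 rat left out. The deviations with all rats gained a call for both pairs (adjusted p = 0.0197 for each), from an approximate permutation p. For Adora2a and Drd2, r was 0.927 as deviations from group means, 0.226 as deviations without Saline 2, 0.524 without the 2 farthest rats, and from 0.729 to 0.944 with 1 rat left out. Its call was lost without Saline 1 (r = 0.907) or Saline 2.

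Whether the replicate numbers of the labels pair the rats was not settled. Of 9 same-numbered pairs of rats, 2 had deviations correlated above 0.1, in a range of -0.447 to 0.257. Differently numbered pairs ranged from -0.330 to 0.357. Deviations from the means of 3 rats, with Saline 2 among them, cannot decide the question. With the replicate block and all rats, Drd1 differed by 0.38, Drd2 by -0.08 and Adora2a by -0.05 between cocaine and Saline rats, and no call changed.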
